A study of Mus musculus with 30 samples.

Results

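The effect of PD-1 blockade was measured in MC38 tumours whose injected cells carried loss-of-function mutations in B2m (B2mKO). MC38 is a mouse colon carcinoma line that forms tumours in C57BL/6 mice. The comparison sets 5 B2mKO libraries treated with an antibody against PD-1 (aPD1) against 5 B2mKO libraries treated with an IgG1 control (IgG1). These 10 libraries were chosen by their titles from the 30 of the series, which also holds WT and Jak1 mutant tumours with either antibody, 5 libraries a group. Both B2mKO groups, and the WT aPD1 and WT IgG1 groups set beside them, came from female C57BL/6 mice aged 6 to 8 weeks that received 1000000 cells under the skin. Each mouse was given 100 µg of its antibody into a vein on days 7, 10 and 13, and about 50 mg of tumour was frozen on day 14, 1 day after the last dose. The B2m mutations were in both B2mKO groups and were confined by design to the injected cells, so the host cells in each piece kept an intact gene. The labels do not say how the B2mKO cells were made, whether they were 1 clone, or whether each library came from a different mouse. The p-values therefore measure the spread between these samples, which may in part be technical.

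B2m encodes the light chain that MHC class I molecules need to reach the cell surface. Cytotoxic CD8 T cells recognise tumour cells through MHC class I, and PD-1 is an inhibitory receptor on activated T cells whose ligand PD-L1 (Cd274) is induced by interferon gamma. T cells and natural killer (NK) cells make interferon gamma, which signals through JAK1 to a set of target genes that includes Cd274, the Gbp family and the MHC class I pathway. Loss of B2m is a known route of escape from checkpoint blockade. The comparison asks what a course of aPD1 did to RNA levels in tumours of this kind, and how large a change the data leave room for where none passed the test.

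B2m, on chromosome 2 (chr2:122147686-122153083, GRCm38, plus strand), was at 621, 963, 561, 809 and 790.0 CPM in the B2mKO aPD1 libraries, against 501, 509.9, 707, 621 and 747 CPM in the B2mKO IgG1 libraries. CPM is a gene's count per 1000000 of the library's scaled total. Every B2mKO library was below every WT library, which ran from 1965 to 5459 CPM, and the B2mKO mean was 16.4% of the WT mean with aPD1 and 20.0% with IgG1. These pieces hold host cells as well as tumour cells, and how much of the remaining B2m RNA came from either was not measured. Intervals are 95% confidence intervals of the log2 change and values after ± are standard errors, except where SD is named. Between the antibodies the B2mKO groups overlapped (log2 change 0.28 ± 0.19, 95% interval -0.11 to 0.66). Jak1, the interferon signalling kinase that was mutated in other tumours of the series, was at 293, 199, 281, 300.3 and 315 CPM in B2mKO aPD1, against 320.0, 323, 298, 296 and 276 CPM in B2mKO IgG1. Its log2 change was -0.12 ± 0.098 (95% interval -0.33 to 0.078), and the lowest of the 10 values was aPD1 replicate 2.

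Total counts were 18881630 to 23161312 in B2mKO aPD1 and 18599575 to 25944701 in B2mKO IgG1. Of the 10 libraries, 3 stood apart. The root mean square log2 distance to the other 4 of its group was 0.856 for aPD1 replicate 2, 0.555 for aPD1 replicate 3 and 0.579 for IgG1 replicate 5, against 0.296 to 0.419 in the other 7. The first principal component, with 39.0% of the variance, separated aPD1 replicate 2 from the other 9, and its deviation followed gene length. Genes with under 1000 bases of exon were higher in it than in the other 4 aPD1 libraries by a median log2 of 0.51, and genes over 8000 bases were lower, with a median of -0.65. The second component, with 25.4%, separated aPD1 replicate 3 and IgG1 replicate 5, which held skeletal muscle RNA. The summed level of 14 muscle genes was 119 CPM in aPD1 replicate 3 and 326 CPM in IgG1 replicate 5, against 5.35 to 25.9 CPM in the other aPD1 libraries and 4.36 to 8.58 CPM in the other IgG1 libraries. Fits without each of these libraries and without all 3 were run, and values from them stand beside some of the results that moved. Why these libraries differed was not tested.

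**Figure D1:**
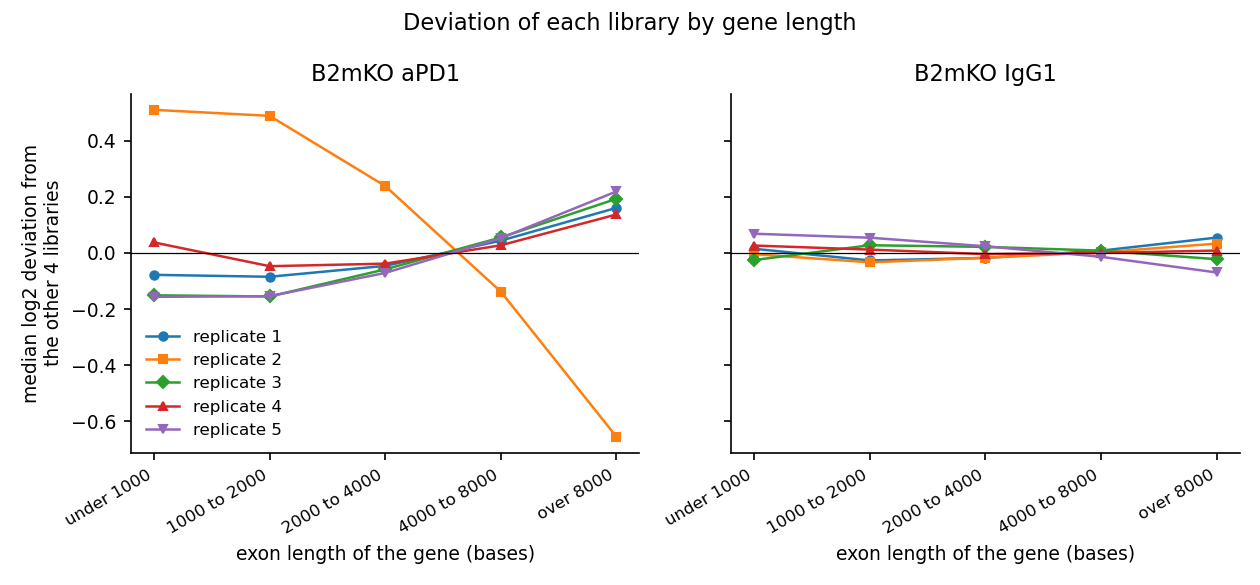
Median log2 deviation of each B2mKO library from the other 4 of its group (y axis) for genes binned by exon length in bases (x axis), with aPD1 on the left, IgG1 on the right and 1 line per library. aPD1 replicate 2 runs from 0.51 in genes under 1000 bases to -0.65 in genes over 8000 bases, and no other library deviates by more than 0.22 in any bin.

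No gene passed an adjusted p of 0.05 between aPD1 and IgG1 in B2mKO tumours among the 15505 tested (0%), and the smallest adjusted p was 0.8003 in edgeR's quasi-likelihood test. DESeq2 and limma voom also called 0 genes. At an unadjusted p under 0.05 there were 516 genes (3.33%), of which 276 were higher (1.78%) and 240 lower (1.55%) with aPD1. If no gene changed, the expected share of genes under that p would itself be 0.05. With no scaling beyond the library total the split was 507 higher and 132 lower. The corresponding unadjusted counts were 536 with DESeq2 and 500 with limma voom. In WT tumours the same test called 581 genes higher (3.75%) and 98 lower (0.632%) with aPD1. The B2mKO estimates were small as well as uncalled. The median log2 change was 0.0037, and 90% of genes lay between the 5th percentile of -0.40 and the 95th percentile of 0.43. The absolute log2 change was under 0.5 for 93.3% of genes and over 1 for 157 genes, 102 higher and 55 lower. The count of 516 moved with single libraries. It was 953 without aPD1 replicate 1, 793 without aPD1 replicate 4, 782 without IgG1 replicate 5, 341 without IgG1 replicate 2 and 288 without aPD1 replicate 2. No gene passed the adjusted test in any of the 10 fits that each left out 1 library, with a smallest adjusted p of 0.2485.

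A missing call does not show that nothing changed, so each gene's change was also tested against fixed limits. A gene was counted as bounded within 2-fold when a pair of one-sided tests on the edgeR estimate placed its change inside a 2-fold rise and a 2-fold fall, at an adjusted p under 0.05 over all genes. This held for 13531 of 15505 genes (87.3%), and 9127 genes (58.9%) were bounded within 1.5-fold. Over the 34952 genes with at least 1 count in any library the shares were 37.5% and 23.6%. The median standard error was 0.17 on the log2 scale and the median half-width of the 95% interval was 0.35. The share bounded depended on the level. Below 1 CPM, 46.3% of 2487 genes were bounded within 2-fold and 2.01% within 1.5-fold. Between 1 and 5 CPM the shares were 82.3% and 30.4% of 2335 genes, and between 5 and 20 CPM 95.9% and 71.5% of 2779. From 20 to 100 CPM the shares were 98.9% and 81.8% of 5524 genes, and the median interval there reached 1.19-fold to either side. Above 100 CPM they were 97.9% and 78.0% of 2380 genes. Of the 1974 genes not bounded within 2-fold, 1748 were under 5 CPM. For those genes the depth and the spread between libraries left changes over 2-fold possible. Without aPD1 replicate 2 the count within 2-fold was 13709 and that within 1.5-fold 10474.

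**Figure D2:**
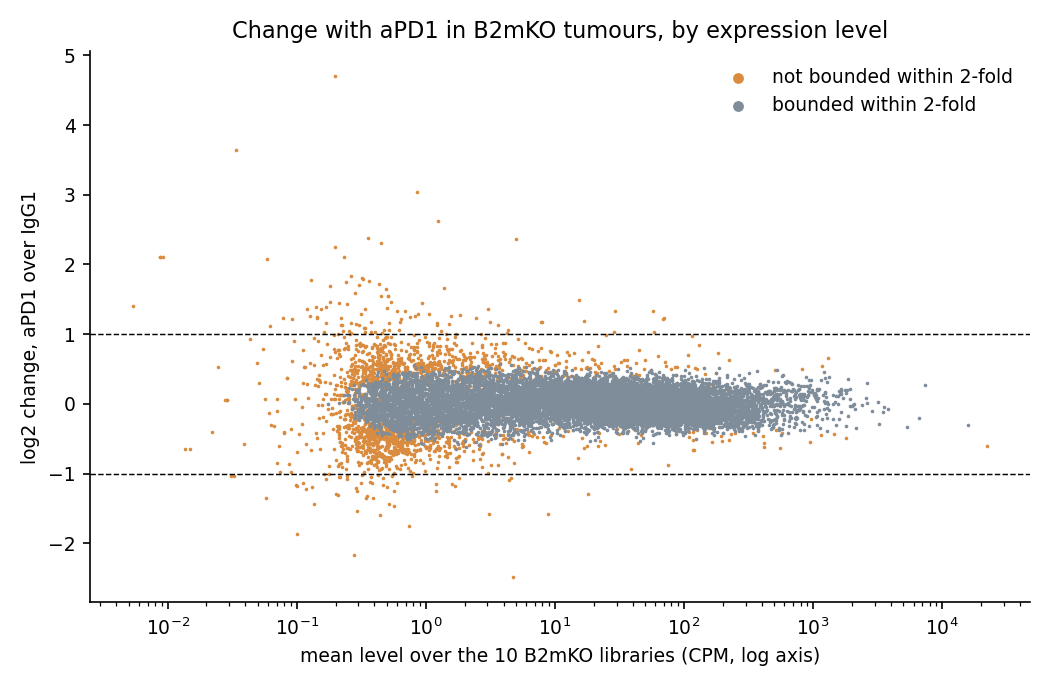
Log2 change with aPD1 over IgG1 in B2mKO tumours (y axis) against the mean level of the 10 libraries in CPM (x axis, log scale), 1 point per gene, grey where the change was bounded within 2-fold and orange where it was not. Dashed lines mark a 2-fold rise and fall; most of the 1974 orange points lie at low levels.

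**Figure D3:**
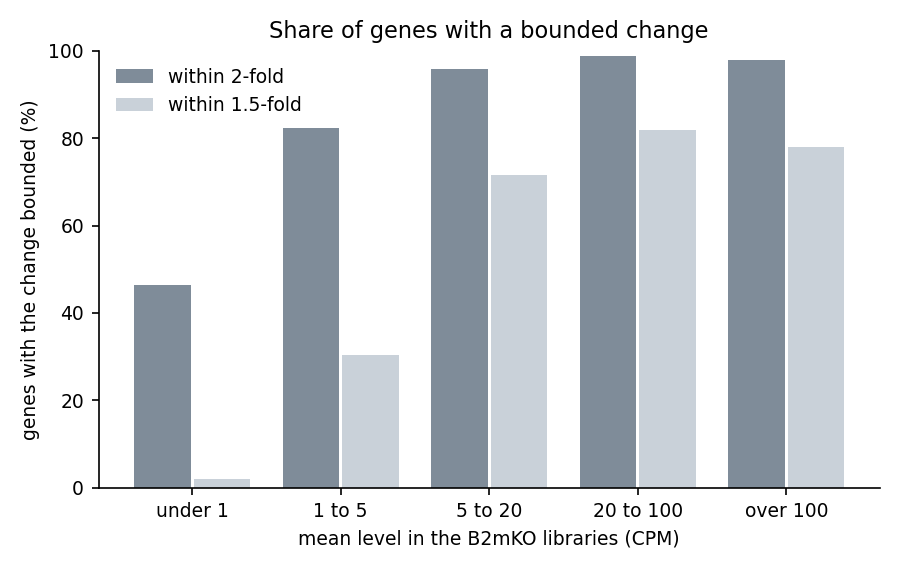
Share of genes (y axis, percent) whose change with aPD1 in B2mKO tumours was bounded within 2-fold (dark bars) or within 1.5-fold (light bars), by mean level in CPM (x axis). The share within 2-fold is 46.3% under 1 CPM and 98.9% between 20 and 100 CPM.

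Among PD-1 and its ligands, Cd274 (chr19:29367455-29388095, GRCm38, plus strand), which encodes PD-L1, was at 38.9, 45.7, 28.2, 54.0 and 43.5 CPM in B2mKO aPD1, against 63.7, 49.1, 32.8, 64.2 and 38.9 CPM in B2mKO IgG1. The groups overlapped, the change was -0.24 ± 0.28 (95% interval -0.82 to 0.34), and it was bounded within 2-fold (adjusted p = 0.00785, a pair of one-sided tests on edgeR's estimate). In WT tumours Cd274 averaged 146 ± 53.1 CPM with aPD1 and 37.6 ± 9.98 CPM with IgG1 (SD, n = 5 each), a log2 change of 1.96 ± 0.29. PD-1 itself (Pdcd1) was at 2.54, 3.48, 0.781, 1.31 and 1.00 CPM in B2mKO aPD1, against 1.43, 1.86, 1.31, 0.954 and 1.65 CPM in B2mKO IgG1. The whole group's reads came to 184 with aPD1 and 155 with IgG1, and the interval of -0.87 to 1.52 left changes beyond 2-fold upward and short of 2-fold downward possible. The second ligand gene Pdcd1lg2, which encodes PD-L2, had a log2 change of 1.45 (95% interval 0.19 to 2.71, unadjusted p = 0.0261 in edgeR). Its aPD1 values were 0.919, 3.77, 0.878, 0.826 and 0.480 CPM, against 0.344, 0.605, 0.422, 0.477 and 0.614 CPM with IgG1, so the level in aPD1 replicate 2 stood well above the other 9, and without it the log2 change of Pdcd1lg2 was 0.62. Cd80, a ligand of CD28 and CTLA-4, was also higher at an unadjusted p (0.54, 95% interval 0.055 to 1.03). Of the 19 checkpoint and co-stimulatory genes, 11 were bounded within 2-fold and 2 within 1.5-fold, beside 87.3% and 58.9% of all genes. Of the 19, 17 had a log2 change above 0, as did 50.8% of all genes. Their median was 0.33, and 0.19 without aPD1 replicate 2.

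Ifng, which encodes interferon gamma, was near the detection limit in B2mKO tumours. It had 1, 5, 0, 10 and 3 counts in the aPD1 libraries and 1, 1, 0, 4 and 2 counts in the IgG1 libraries. In WT tumours it averaged 3.93 ± 1.94 CPM with aPD1 and 0.262 ± 0.130 CPM with IgG1 (SD, n = 5 each). The B2mKO interval, -1.65 to 4.16 on the log2 scale, was too wide to place the change of this gene at so few counts. Its target genes were far better measured. All 31 interferon gamma response genes were tested. With aPD1 in B2mKO tumours 25 were bounded within 2-fold (80.6%) and 8 within 1.5-fold, beside 87.3% and 58.9% of all genes. None of the 31 passed the adjusted test and none had an unadjusted p under 0.05, while in WT tumours 28 of the 31 rose with aPD1. The list's median log2 change was -0.076 in B2mKO, with 12 members above 0, beside a median of 1.37 in WT. Without aPD1 replicate 3 the B2mKO median was 0.0081.

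The upper 95% limit lay below a 2-fold rise for 25 of the 31 targets, beside 90.5% of all genes. Gbp7 (chr3:142530342-142550149, GRCm38, plus strand), an interferon-induced GTPase, was at 189, 126, 137, 189.9 and 191 CPM in B2mKO aPD1, against 239, 214, 172, 214 and 209 CPM in B2mKO IgG1. The aPD1 libraries lay mostly below the IgG1 libraries with some overlap, and the interval of -0.71 to 0.046 corresponded to folds of 0.612 to 1.03. In WT tumours Gbp7 averaged 315 ± 61.5 CPM with aPD1 and 140.2 ± 34.4 CPM with IgG1 (SD, n = 5 each). Cxcl10, a chemokine that draws T cells, averaged 141 ± 28.4 CPM in B2mKO aPD1 and 178 ± 32.6 CPM in B2mKO IgG1 (SD, n = 5 each). Its interval was -0.72 to 0.047. Ido1, the tryptophan-degrading enzyme with the smallest p for aPD1 in WT tumours, averaged 0.126 ± 0.153 CPM in B2mKO aPD1 and 0.0981 ± 0.0498 CPM in B2mKO IgG1 (SD, n = 5 each). Its B2mKO interval covered folds of 0.378 to 4.02, so this gene was hardly bounded. The sum over the 31 genes was lowest in aPD1 replicate 3, at 2619 CPM, against 3418 to 3794 CPM in the other aPD1 libraries and 3087 to 4108 CPM in IgG1.

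**Figure D4:**
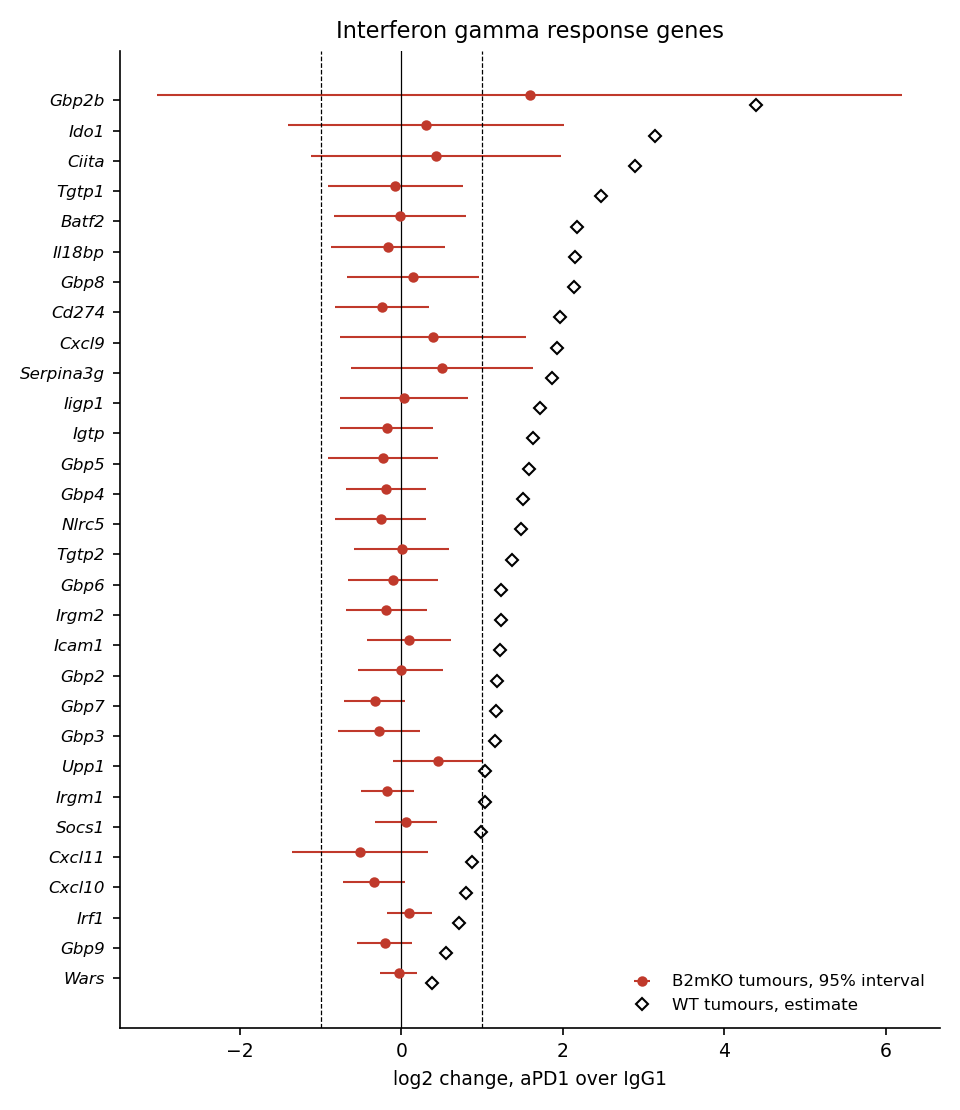
Log2 change with aPD1 over IgG1 (x axis) of 30 of the 31 interferon gamma response genes (rows, ordered by the WT estimate), as the B2mKO estimate with its 95% interval (filled circles) and the WT estimate (open diamonds). The dashed lines mark a 2-fold fall and a 2-fold rise; the B2mKO estimates centre near 0 and the WT estimates above it, with medians over all 31 genes of -0.076 in B2mKO and 1.37 in WT.

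The start regions of Cd274 and Gbp7 are shown because their aPD1 effect differed between the genotypes at an adjusted p under 0.05 in edgeR. With Gbp4 and Irgm1 they were the 4 genes of this list that passed, as did 0.103% of all genes. Neither Cd274 nor Gbp7 passed without aPD1 replicate 3 or without the 3 libraries that stood apart. Gbp4 and Irgm1 were named after their values were seen. The sequences are RefSeq windows of 300 bases on build GRCm38.p6, 250 before the start site and 50 after it. The Cd274 window is chr19:29367188-29367487 and that of Gbp7 chr3:142530086-142530385, both on the plus strand and given 5′ to 3′. Capitals mark matches on either strand to the letters TTCNNNGAA of the interferon gamma activated site (GAS), or to the core of an ISRE, TTTC followed after 2 bases by TTTC, the form bound by interferon regulatory factors.
Cd274: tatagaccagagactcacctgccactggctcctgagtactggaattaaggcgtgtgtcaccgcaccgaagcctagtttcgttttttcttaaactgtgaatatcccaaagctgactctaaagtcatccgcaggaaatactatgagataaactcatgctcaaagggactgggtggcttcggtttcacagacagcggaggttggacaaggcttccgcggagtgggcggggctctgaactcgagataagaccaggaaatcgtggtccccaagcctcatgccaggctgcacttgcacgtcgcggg
Gbp7: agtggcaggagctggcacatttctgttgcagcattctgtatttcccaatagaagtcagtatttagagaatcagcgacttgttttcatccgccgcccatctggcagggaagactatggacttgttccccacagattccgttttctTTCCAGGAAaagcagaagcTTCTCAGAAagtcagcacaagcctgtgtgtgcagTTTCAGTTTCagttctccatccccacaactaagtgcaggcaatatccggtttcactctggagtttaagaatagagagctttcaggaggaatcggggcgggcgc
The Gbp7 window held 2 GAS matches and 1 ISRE match, none overlapping another, and the Cd274 window held neither set of letters. Of the 31 listed genes, 19 had a window in the table, of which 9 held a GAS match, 12 an ISRE match and 15 at least one of them. Some of these windows lay far from the gene's start in the counted gene models. Those 1926, 2956 and 15359 bases away each held both kinds of match. Among all 32851 windows of the same length, 8.3% held a GAS match and 3.44% an ISRE match. These matches describe the letters in the windows and do not measure binding.

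No gene that responds mainly to type I interferon passed the adjusted test. Of 30 tested, 3 had a log2 change above 0 (50.8% of all genes did) and 4 had an unadjusted p under 0.05, all lower with aPD1 (1.55% of all genes were). The list's median was -0.21, beside 0.0037 over all genes. It was -0.063 without aPD1 replicate 3 and -0.095 without the 3 libraries that stood apart. Oas3, an antiviral oligoadenylate synthetase, was at 102, 47.4, 57.3, 135 and 121 CPM in B2mKO aPD1, against 165, 153, 88.8, 166 and 161 CPM in B2mKO IgG1, and its change was -0.67 (95% interval -1.26 to -0.074, unadjusted p = 0.0289 in edgeR), or -0.27 without the 3 libraries. The lowest Oas3 values were in aPD1 replicates 2 and 3, and the lowest IgG1 library lay within the aPD1 range. Eif2ak2, the RNA-activated kinase PKR, had a change of -0.31 (95% interval -0.60 to -0.022) and was bounded within 2-fold. Ifih1, the RNA sensor MDA5, had the narrowest interval of the list (-0.47 to 0.081). In all, 26 of the 30 were bounded within 2-fold and 11 within 1.5-fold, beside 87.3% and 58.9% of all genes. A 2-fold rise lay above the 95% interval of 29 of the 30, beside 90.5% of all genes. In WT tumours none of the 30 passed the test.

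Of 23 MHC class I genes tested, 22 were bounded within 2-fold and 19 within 1.5-fold, beside 87.3% and 58.9% of all genes, or 97.9% and 78.0% of those over 100 CPM. The median log2 change was 0.068, and -0.063 without aPD1 replicate 2. Tapbp, which encodes the peptide loading factor tapasin, was at 771, 559.6, 565, 722 and 685 CPM with aPD1, against 869, 902, 685, 864 and 717 CPM with IgG1. The ranges overlapped, and the change was -0.29 (95% interval -0.55 to -0.03, unadjusted p = 0.0303 in edgeR). Tap2, a subunit of the transporter that brings peptides into the endoplasmic reticulum, averaged 124 ± 14.9 CPM with aPD1 and 143 ± 9.90 CPM with IgG1 (SD, n = 5 each), with an interval of -0.41 to 0.015. Canx, the chaperone calnexin, had the narrowest interval of the list (-0.22 to 0.064). In WT tumours 6 of these 23 genes rose with aPD1, Tap2 (0.55) and Tapbp (0.44) among them.

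MHC class II genes, which professional antigen-presenting cells express, were the opposite case. None of 10 was bounded within 2-fold, beside 87.3% of all genes. Of the 10, 9 had a log2 change above 0 (50.8% of all genes did), with a median of 0.62 (0.40 without aPD1 replicate 2). H2-Ab1, a class II beta chain, was at 46.2, 269, 90.6, 62.6 and 25.9 CPM in B2mKO aPD1, against 17.2, 20.0, 70.9, 26.0 and 76.3 CPM in B2mKO IgG1. The value of aPD1 replicate 2 was the highest and the other 4 aPD1 libraries overlapped the IgG1 group, giving a log2 change of 1.23 (95% interval -0.34 to 2.81) and of 0.43 without that library. H2-Eb1, another beta chain, had a similar interval (-0.29 to 2.94), and that of H2-DMb2, part of the class II peptide loading complex, was the narrowest (-0.26 to 1.15). These data therefore left room for rises of several fold and for none.

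T cell genes were low in both B2mKO groups. In pieces of whole tumour, fewer cells of a type and less RNA per cell cannot be told apart. Cd8a, the CD8 alpha chain, was at 3.19, 3.63, 5.03, 5.05 and 0.523 CPM in B2mKO aPD1, against 0.229, 0.777, 1.97, 0.517 and 6.33 CPM in B2mKO IgG1. The aPD1 group held 4 libraries above 3 CPM and the IgG1 group 1, but each group held values from both ends, and the change was 0.82 ± 0.79 (95% interval -0.81 to 2.44). With 1 library left out it ran from 0.56 (without IgG1 replicate 4) to 1.97 (without IgG1 replicate 5). Cd3e, a subunit of the T cell receptor complex, was at 1.19, 1.03, 0.829, 1.80 and 0.393 CPM in B2mKO aPD1, against 0.229, 0.475, 0.938, 0.437 and 2.12 CPM in B2mKO IgG1 (95% interval -1.07 to 1.66). The members with the smallest p in edgeR were Cd2, an adhesion receptor of T and NK cells (0.96, 95% interval -0.0032 to 1.91), and Cd3d, another subunit of the receptor complex (1.16, 95% interval -0.096 to 2.42). Of 24 T cell genes, 21 had a log2 change above 0 (50.8% of all genes did) and none passed at either threshold. Their median was 0.54 (0.46 without aPD1 replicate 2, 0.81 without the 3 libraries and 0.92 without IgG1 replicate 5). Only 6 were bounded within 2-fold, beside 87.3% of all genes. The best bounded was Tcf7, a transcription factor also expressed outside T cells, with an interval of -0.44 to 0.15. A 2-fold fall lay outside the 95% interval of 23 of the 24, whereas a 2-fold rise lay outside that of 5. Over all genes these shares were 91% and 90.5%. In WT tumours 6 of the 24 rose and the median was 1.73.

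Cytotoxic genes were more abundant but varied widely within groups. Gzmb, the protease granzyme B that killer cells deliver to their targets, was at 51.8, 85.6, 12.6, 63.7 and 44.7 CPM in B2mKO aPD1, against 56.2, 93.2, 27.2, 30.2 and 28.6 CPM in B2mKO IgG1. The ranges largely overlapped, and the change was 0.13 ± 0.56 (95% interval -1.02 to 1.29), with the lowest value in aPD1 replicate 3. Gzmb averaged 42.3 ± 17.7 CPM in WT aPD1 and 8.57 ± 6.27 CPM in WT IgG1 tumours (SD, n = 5 each), so the B2mKO IgG1 mean of 47.1 ± 28.4 CPM was closer to that of WT tumours with aPD1 than with IgG1. Gzmk, a granzyme of memory T cells, was the only one of 21 cytotoxic genes with an unadjusted p under 0.05 (1.45, 95% interval 0.19 to 2.72), at 0.919, 0.588, 0.976, 1.36 and 0.0872 CPM with aPD1 and 0.0573, 0.0432, 0.188, 0 and 1.13 CPM with IgG1. Over all genes 1.78% were higher at such a p. With 1 library left out the log2 change of Gzmk ran from 1.09 (without IgG1 replicate 4) to 3.38 (without IgG1 replicate 5). Gzma had an interval of -0.20 to 1.91. The list's median was 0.29, and 0.017 without aPD1 replicate 2. Reads that map to more than 1 place were not counted, per the file headers, so the levels of near-identical neighbours such as granzyme, Gbp, Ly49 and MHC class I genes are uncertain. Of 14 NK cell genes, 13 had a log2 change above 0 (50.8% of all genes did) and 3 were bounded within 2-fold (87.3% of all genes were). Klra4, a Ly49 receptor, supplied much of that list's level, with an interval of -0.084 to 0.74, and the list's median was 0.40 (0.15 without aPD1 replicate 2). Ikzf4, a transcription factor of regulatory T cells, was the only one of 9 genes of that list with an unadjusted p under 0.05 (0.84, 95% interval 0.17 to 1.52). Again 1.78% of all genes were higher at such a p.

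An exact two-sided permutation test of mean log2 CPM over the 10 libraries was run for 7 of the genes above as a check. The exact p was 0.167 for B2m, 0.325 for Jak1, 0.738 for Pdcd1, 0.389 for Cd274, 0.333 for Ifng, 0.206 for Cd8a and 0.929 for Gzmb. The adjusted values over the 7 were 0.544 to 0.929, and the smallest p this exact test allows with 5 against 5 is 0.00794.

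**Figure D5:**
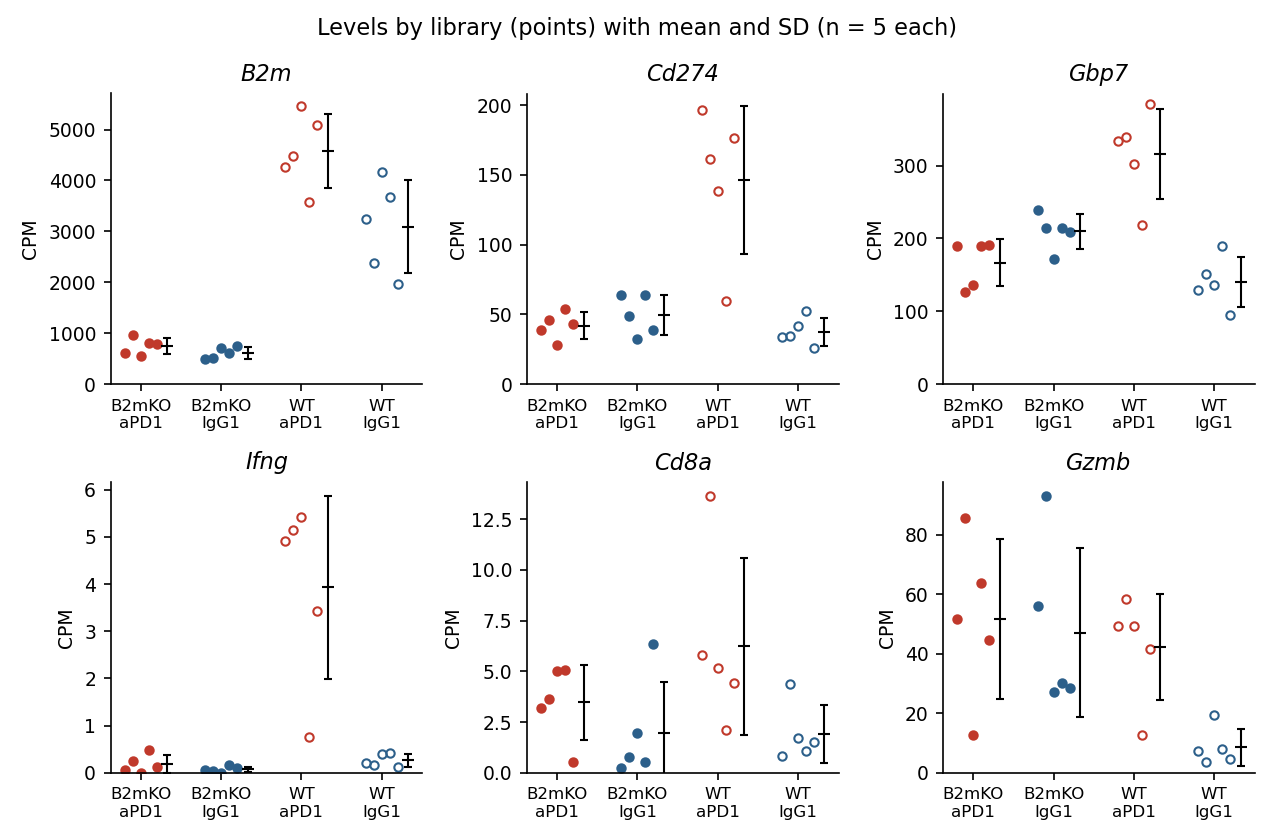
CPM (y axis, linear from 0) of 6 genes in each library, B2mKO in filled and WT in open points, aPD1 in red and IgG1 in blue, with the mean and SD of each group (n = 5, bars cut at 0). The 2 B2mKO groups overlap in every panel, and B2m in the B2mKO libraries stays below its lowest WT value of 1965 CPM.

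Macrophage and monocyte genes had a median log2 change of 0.31, with 20 of 24 above 0 (50.8% of all genes were) and 13 bounded within 2-fold (87.3% of all genes were). Nos2, the inducible nitric oxide synthase of activated macrophages, was at 58.2, 34.1, 50.6, 79.3 and 44.0 CPM in B2mKO aPD1, against 142, 131, 29.7, 148 and 38.8 CPM in B2mKO IgG1. The IgG1 values fell into 3 near 140 CPM and 2 under 40 CPM, and the interval was -1.77 to 0.0051. Trem2, a lipid-sensing receptor of tumour macrophages, was at 52.9 to 86.4 CPM with aPD1, against 35.3 to 52.5 CPM with IgG1, with the top value in aPD1 replicate 2. The lowest aPD1 value was just above the highest IgG1 value, and the interval still included 0 (-0.10 to 1.00). Fcgr3, an activating Fc receptor, had an interval of -0.02 to 1.09. Among 23 chemokine genes 3 had an unadjusted p under 0.05, all higher, as were 1.78% of all genes. Ccl6 was at 19.1, 103, 26.4, 30.8 and 13.4 CPM with aPD1, against 12.9, 17.5, 19.3, 17.7 and 26.3 CPM with IgG1, and Ccl8, a monocyte chemoattractant, at 13.3, 62.6, 19.3, 13.5 and 4.41 CPM with aPD1, against 3.04, 6.05, 11.2, 7.79 and 12.0 CPM with IgG1. For both the highest value belonged to aPD1 replicate 2, and the other 4 overlapped the IgG1 libraries. The log2 change of Ccl6 was 1.04 with that library and 0.26 without it, and that of Ccl8 1.49 with it and 0.65 without it. Without that library the chemokine list's median was -0.092, against 0.084 with it. Dendritic cell genes had 6 of 10 members bounded within 2-fold and a median of 0.37, neutrophil genes 4 of 7 and -0.011, B and plasma cell genes 1 of 4 and 0.33, and mast cell genes 3 of 7 and 0.64. The mast cell median was 0.079 without aPD1 replicate 3 and -0.11 without the 3 libraries, and that of B and plasma cell genes ran from 0.12 to 0.65 with 1 library left out. The neutrophil median changed sign with single libraries left out, between -0.21 and 0.23.

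Proteases are the subject of the series' title. Among 15 cathepsins and legumain, 13 had a log2 change above 0, 11 were bounded within 2-fold and 6 within 1.5-fold. Over all genes 50.8% were above 0, 87.3% were bounded within 2-fold and 58.9% within 1.5-fold. Lgmn, which encodes the lysosomal protease legumain, was at 534, 666, 605, 715 and 714 CPM in B2mKO aPD1, against 417, 394, 568, 501 and 580.4 CPM in B2mKO IgG1. The groups overlapped, and the change was 0.39 ± 0.18 (95% interval 0.019 to 0.77, unadjusted p = 0.0401 in edgeR). Ctsf, a cysteine cathepsin, was at 1.08, 3.09, 2.05, 0.874 and 0.785 CPM with aPD1, against 0.630, 0.561, 1.17, 0.954 and 1.09 CPM with IgG1. The values of aPD1 replicates 2 and 3 were above all others and the remaining 3 lay within the IgG1 range. The log2 change of Ctsf was 0.82 (95% interval 0.11 to 1.53), and 0.11 without the 3 libraries. Among 23 ADAM and ADAMTS genes 6 were above 0 and 2 had an unadjusted p under 0.05, both lower, as were 1.55% of all genes. Adamts12 was at 74.4, 26.7, 44.5, 45.6 and 43.3 CPM in B2mKO aPD1, against 75.6, 82.5, 87.1, 57.9 and 42.0 CPM in B2mKO IgG1 (95% interval -1.03 to -0.09), with its lowest value in aPD1 replicate 2. Adamts6 had an interval of -0.73 to -0.047. This list's median was -0.12, and 0.021 without aPD1 replicate 2. Of 17 matrix metalloproteinases 11 were bounded within 2-fold, and Mmp14, a membrane-bound collagenase, had an interval of -0.63 to 0.071. Serine proteases and surface peptidases had 16 of 23 bounded within 2-fold, and protease inhibitors 15 of 21. At an unadjusted p under 0.05, 1 inhibitor gene was higher, as were 1.78% of all genes. The inhibitors' median was 0.15, and -0.068 without aPD1 replicate 2.

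All 31 proteasome subunit genes were bounded within 2-fold and 24 within 1.5-fold, with 28 above 0 and a median of 0.14. Of all genes over 100 CPM, 97.9% and 78.0% were so bounded, and of those between 20 and 100 CPM 98.9% and 81.8%. Over all genes tested 50.8% were above 0. Psma7, a core particle subunit, was at 294, 762, 268, 246 and 272 CPM in B2mKO aPD1, against 248, 241, 304, 256 and 301 CPM in B2mKO IgG1. The value of aPD1 replicate 2 was more than double the others, which overlapped, and Psmb1 had its highest value in the same library. The log2 change of Psma7 was 0.45 with that library and 0.0048 without it, and that of Psmb1 0.32 and 0.055. Psmd2, a subunit of the regulatory particle, had the narrowest interval (-0.22 to 0.093). The list's median without that library was -0.035, and 0.10 with each library's trend on gene length taken into the fit.

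All 20 mitotic genes were bounded within 2-fold and 17 within 1.5-fold (median 0.051), and Prc1, a spindle midzone protein, had an interval of -0.091 to 0.24. All 16 genes of the unfolded protein response were bounded within 2-fold and 12 within 1.5-fold (median 0.12, and 0.027 without aPD1 replicate 2). Over all genes above 100 CPM these shares were 97.9% and 78.0%, and over all genes tested 87.3% and 58.9%. Of 16 hypoxia-induced genes 14 were bounded within 2-fold. Car9, a carbonic anhydrase that marks hypoxia, was the exception with an unadjusted p under 0.05, at 47.3, 28.8, 22.2, 23.3 and 11.8 CPM with aPD1, against 56.9, 117, 25.8, 45.4 and 9.30 CPM with IgG1 (95% interval -1.79 to -0.079). Over all genes 1.55% were lower at such a p. The log2 change of Car9 was -0.93, and -0.37 without IgG1 replicate 2. The 7 mitochondrially encoded genes tested were all below 0 and all bounded within 2-fold. mt-Nd2 was at 1961, 1117, 2222, 2129.8 and 2103 CPM with aPD1, against 2162, 2502, 2600.5, 2297 and 2559 CPM with IgG1, with the lowest value in aPD1 replicate 2, and the list's median was -0.30 (-0.099 without that library). Of 23 fibroblast and collagen genes 17 were bounded within 2-fold, with a summed level of 20066 CPM in aPD1 replicate 2 and 49901 to 60696 CPM in the other aPD1 libraries, against 42784 to 84546 CPM in IgG1. Of 16 endothelial genes 14 were bounded within 2-fold, and Pecam1, an endothelial adhesion protein, had an interval of -0.086 to 0.63. Of the 16, 14 had a log2 change above 0, as did 50.8% of all genes. The list's median was 0.21, and 0.10 to 0.38 with 1 library left out. At an unadjusted p under 0.05, 1 endothelial gene was higher (0.93, 95% interval 0.30 to 1.56), as were 1.78% of all genes. Its aPD1 and IgG1 values overlapped.

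Markers of tissue around the tumour were mostly not bounded. None of 14 skeletal muscle genes was bounded within 2-fold (87.3% of all genes were), and the median of -1.08 was 1.17 without the 3 libraries that stood apart. Acta1, skeletal muscle actin, was at 0.486, 0.0980, 45.0, 6.27 and 0.174 CPM in B2mKO aPD1, against 0.0573, 0.302, 0.0469, 0.954 and 126 CPM in B2mKO IgG1. Xirp2, another muscle gene, was high in the same pair of libraries. Of 7 adipocyte genes 1 was bounded within 2-fold and 2 had an unadjusted p under 0.05, both higher, as were 1.78% of all genes. The adipocyte median of 1.80 was -0.70 without the 3 libraries. Adipoq, which encodes the fat hormone adiponectin, was at 0.0540, 1.03, 1.76, 0.0486 and 0.131 CPM with aPD1, against 0.0573, 0.0864, 0.234, 0.159 and 0 CPM with IgG1, high in aPD1 replicates 2 and 3. Hp, the plasma protein haptoglobin, was high in the same libraries, at 1.14, 22.5, 16.9, 0.826 and 0.829 CPM with aPD1, against 0.916, 1.38, 2.67, 1.27 and 1.89 CPM with IgG1. Chil3, a chitinase-like protein of myeloid cells, was at 1.89 to 42.3 CPM with aPD1, against 1.15 to 15.6 CPM with IgG1, and its top value was in aPD1 replicate 2. Its log2 change was 1.18 with that library and -0.65 without it. Of the remaining lists, skin keratinocyte genes had 3 of 4 members bounded within 2-fold, red blood cell genes 0 of 5, simple and colonic epithelial genes 2 of 6 and Hox B genes 5 of 6. Epcam, an epithelial adhesion protein, was at 0.244 to 3.63 CPM with aPD1 and 0.236 to 0.844 CPM with IgG1.

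The genes with the smallest p were mostly small or low-level differences. Nab1, a co-repressor of EGR transcription factors, was at 73.7, 63.5, 68.4, 69.8 and 78.2 CPM in B2mKO aPD1, against 98.2, 82.1, 84.7, 84.2 and 84.2 CPM in B2mKO IgG1. Its groups did not overlap, and its log2 change was -0.29 (95% interval -0.45 to -0.14, unadjusted p = 0.000556 and adjusted p = 0.8 in edgeR), yet bounded within 2-fold. Lrrtm2, a cell adhesion protein best known from synapses, was at 5.08, 3.68, 3.71, 4.96 and 3.97 CPM with aPD1, against 6.13, 6.09, 5.25, 6.28 and 6.85 CPM with IgG1, also without overlap (95% interval -0.82 to -0.21). On the higher side, Rwdd2a was at 2.00, 2.25, 1.56, 1.85 and 1.48 CPM with aPD1, against 1.32, 0.821, 1.08, 0.755 and 1.37 CPM with IgG1, and Mmd at 30.5, 39.5, 31.9, 31.9 and 37.0 CPM with aPD1, against 26.1, 27.8, 29.3, 28.8 and 26.4 CPM with IgG1. Neither pair of groups overlapped, and the intervals were 0.36 to 1.22 and 0.12 to 0.48. The smallest p of all genes belonged to Hoxb7, a homeobox gene at 0.270, 0.735, 0.537, 0.826 and 1.00 CPM with aPD1, against 0.0573, 0.0432, 0.281, 0.199 and 0.425 CPM with IgG1. The lowest aPD1 value lay within the IgG1 range (log2 change 1.73, 95% interval 0.94 to 2.51, unadjusted p = 0.000109 and adjusted p = 0.8003 in edgeR). The other genes with the smallest p among those of at least 1 CPM were Ccdc125, B3galnt1, Alcam, Flrt3, Sept1 and Abcd2 on the higher side, with log2 changes of 0.39 to 0.88, and Zic4, Kcnh1, Ankrd29, Gmeb1, Frrs1 and Fam83c on the lower side, with -0.24 to -0.88. They include adhesion proteins (Alcam, Flrt3), a potassium channel (Kcnh1) and DNA-binding proteins (Zic4, Gmeb1). None of these 17 passed the adjusted test.

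Groups did not overlap for 30 genes higher with aPD1 (0.193% of those tested) and 44 lower (0.284%). Among those whose higher group averaged 5 CPM or more, the highest estimates were those of Dppa4 (0.68), a pluripotency-associated gene, the endothelial receptor Acvrl1 (0.46), Trem2 (0.45) and Xlr3c (0.43). Dppa4 was at 5.40, 6.96, 5.66, 6.32 and 4.36 CPM with aPD1, against 3.72, 3.28, 4.27, 2.42 and 4.25 CPM with IgG1, and averaged over 5 CPM only with aPD1, as Lrrtm2 did only with IgG1. Acvrl1 was at 22.2 to 33.6 CPM with aPD1 and 14.8 to 21.6 CPM with IgG1, and Xlr3c at 16.5 to 35.3 CPM with aPD1 and 13.0 to 16.3 CPM with IgG1, its top value again in aPD1 replicate 2. The lowest estimates were those of Lrrtm2, the kinesin Kif21a (-0.45), the RNA-binding protein Larp1b (-0.39) and the mitochondrial glutamate carrier Slc25a22 (-0.39). Kif21a was at 11.0, 2.65, 11.6, 10.6 and 10.1 CPM with aPD1, against 13.5, 11.8, 11.8, 13.8 and 11.9 CPM with IgG1, with 4 aPD1 libraries just under the IgG1 range and replicate 2 far below it. Slc25a22 was at 31.5 to 47.2 CPM with aPD1, against 47.9 to 57.5 CPM with IgG1. The median log2 change over all genes under 1000 bases was 0.096 with every library and -0.041 without aPD1 replicate 2, and over genes above 8000 bases it was -0.11 and -0.0031. Without that library 288 genes had an unadjusted p under 0.05, of which 157 were among the 516 counted with it.

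The 581 genes that rose with aPD1 in WT tumours set a scale for the size of change left out in B2mKO tumours. Their median log2 change was 0.098 in B2mKO tumours, beside 0.0037 over all genes, and 1.14 in WT tumours. In B2mKO tumours 383 of them (65.9%) had a log2 change above 0, as did 50.8% of all genes. A 2-fold rise lay above the 95% interval in B2mKO for 451 of the 581 (77.6%), while over all genes tested this share was 90.5%. The share followed the level. It was 30.6% of 72 such genes under 1 CPM and 94.1% of 186 between 20 and 100 CPM, where it was 63.4% and 98.9% of all genes. For 551 of the 581 (94.8%) the B2mKO interval ended below the gene's own WT estimate, which carries its own error and was chosen for being high. An unadjusted p under 0.05 was reached in B2mKO by 7 of the 581 in the same direction and by 7 in the opposite one. Of the 344 genes that rose more than 2-fold in WT, a 2-fold rise was left out in B2mKO for 216 (62.8%). Of the same 344, 246 (71.5%) had a B2mKO log2 change above 0. The 98 genes that fell with aPD1 in WT had a median of 0.069 in B2mKO, and for 95 of them (96.9%) a 2-fold fall was left out, beside 91% of all genes.

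Whether the aPD1 effect differed between the genotypes was tested gene by gene with the interaction term of the same edgeR fit. It passed for 16 genes (0.103%), 14 of them among the 581. The 581 were chosen for a high WT effect, and the interaction subtracts that effect, measured in the same WT libraries. Their overlap is therefore partly built in and adds no support. For Cd274 the B2mKO effect was below the WT effect by a log2 difference of -2.20 ± 0.40 (adjusted p = 0.0232), for Gbp7 by -1.50 ± 0.26 (adjusted p = 0.0195) and for Tap2 by -0.75 ± 0.15 (adjusted p = 0.031). Il2rg, the common chain of several cytokine receptors, was at 31.8, 34.4, 22.5, 32.3 and 30.2 CPM in B2mKO aPD1, against 30.6, 43.9, 35.5, 35.6 and 44.5 CPM in B2mKO IgG1 (95% interval -0.79 to 0.12), and its difference was -1.74 ± 0.32. Slco3a1, an organic anion transporter with a WT change of 1.93, had a B2mKO interval of -0.68 to 0.48. Itgb7, a lymphocyte integrin with a WT change of 2.32, had a B2mKO interval of -0.55 to 1.00, and its difference did not pass (adjusted p = 0.0948). Nab1 (-0.57 ± 0.11) and Lrrtm2 (-1.29 ± 0.21) were lower with aPD1 in B2mKO and rose in WT. Kcne3, a potassium channel subunit, differed the other way (3.33 ± 0.58). It was at 2.76, 11.0, 3.22, 5.25 and 4.54 CPM in B2mKO aPD1, against 3.49, 1.68, 3.19, 4.13 and 2.17 CPM in B2mKO IgG1, with its highest value in aPD1 replicate 2, and fell in WT by 2.46 on the log2 scale. Rwdd2a also differed upward (1.57 ± 0.32). These calls rest on few libraries. In WT tumours IgG1 replicate 3 also stood apart, with a distance to the other 4 of its group of 0.850 and short genes above long ones by 0.956 on the log2 scale, beside 1.17 in B2mKO aPD1 replicate 2, and its part in the differences was not tested. The count was 5 without aPD1 replicate 2, 3 without aPD1 replicate 3 (Cd274 and Gbp7 not among them), 4 without IgG1 replicate 4 (Cd274 not among them), 8 without IgG1 replicate 5, 9 without IgG1 replicate 2, and 114 with DESeq2. Without the 3 libraries that stood apart it was 1, a gene not among the 16, and the adjusted p of the 9 differences named here was then 0.18 to 0.287 in edgeR. The estimates themselves moved less: without the 3 libraries the difference was -2.17 for Cd274, -1.31 for Gbp7 and 2.89 for Kcne3.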

How the data were processed

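Tumour RNA was sequenced with paired ends from a TruSeq library kit, per the labels' protocols. The deposited counts are reads per gene, which the authors counted by featureCounts (2.0.0) against Ensembl gene models (GRCm38, release 99), per the file headers. Strand and read pairing were not used, multi-mapped reads were left out and marked duplicates were kept. Overlapping and antisense genes therefore cannot be told apart. Tools listed in the submitters' processing notes, with no role given, are STAR (2.5.2a), edgeR (3.24.3), Cufflinks (2.2.1) and FastQC (0.11.2), and the build is mm10. Counts without a gene symbol made up 0.047%.

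All 30 libraries were fitted in edgeR 4.0.16 (R 4.3.3) with 6 group means, TMM scaling factors of 0.939 to 1.04, a filter of 10 counts (total 15) that kept 15505 genes, quasi-likelihood tests and Benjamini-Hochberg adjustment. Standard errors are the absolute log2 change over the square root of F. limma 3.58.1 and DESeq2 1.42.0 were alternatives, beside other scalings, filters, each library left out and a replicate block. Replicate pairs of the B2mKO groups differed beyond sampling noise (a chi-square test of their counts gave 10.6 to 206 for each degree of freedom). Steps were tested on simulated data.

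Genes were named by rule: 9 set genes, the 8 smallest p in each direction at 1 CPM or more, per list the 2 smallest p and the narrowest interval, the 4 largest changes each way without overlap at 5 CPM or more, the 6 smallest p in WT and for the difference, and the 8 most variable. Of these, 79 are reported, chosen after their values were seen. The 33 gene lists and the named genes were chosen with earlier results of these data known. Of the list entries, 73 fell below the filter. One member of the interferon gamma list is not reported here on its own.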

Additional observations from a re-analysis of the deposited data

Results flagged for a closer look

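Within the groups of 5 libraries, 226 sets of values (named genes and summed gene lists, on the log2 CPM scale) were checked for a library whose gap to its nearest neighbour, as a share of the group's whole range, exceeded 0.71. Chance flags about 1 in 20 independent groups, and 30 of the 226 were flagged. The naming rule took in the genes most variable within groups, and the sets share libraries, so that rate is no baseline for the count. Of the 30 flags, 17 were aPD1 replicate 2. For that library the share was 0.753 for Jak1, 0.714 for Klra4, 0.713 for Cd80, 0.887 for Psmb1, 0.844 for Psma7 and 0.818 for mt-Nd2. It was 0.770 for Trem2, 0.923 for Xlr3c, 0.906 for Kif21a, 0.749 for Larp1b and 0.743 for Chil3. Among summed lists it was 0.794 for chemokines, 0.764 for ADAM and ADAMTS proteases, 0.823 for fibroblast and collagen genes, 0.784 for the unfolded protein response, 0.810 for proteasome subunits and 0.757 for mitochondrially encoded genes.

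In the other aPD1 libraries, replicate 3 was apart for the sums of interferon gamma response genes (0.718) and type I interferon response genes (0.752), and replicate 5 for Cd8a (0.788). Among IgG1 libraries, replicate 1 was apart for Nab1 (0.825) and the mitochondrial sum (0.728), and replicate 2 for Klra4 (0.791) and Xlr3c (0.765). Replicate 3 was apart for Zic4 (0.760), Cd80 (0.787) and Oas3 (0.869). Replicate 5 was apart for Cd3d (0.728), Xirp2 (0.808) and the muscle sum (0.843).

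By the interaction term in edgeR, the aPD1 effect differed between the 2 genotypes for 9 of the named genes, at an adjusted p under 0.05. It did for 16 of all genes (0.103%). The naming rule took in genes with a small p in this same test, so the count of 9 adds no support. Without the 3 libraries that stood apart, the adjusted p of the 9 in edgeR was 0.18 to 0.287. The log2 difference, B2mKO minus WT, was -2.20 for Cd274, -1.50 for Gbp7, -1.74 for Il2rg, -0.75 for Tap2, -2.03 for Slco3a1, -0.57 for Nab1 and -1.29 for Lrrtm2. It was 3.33 for Kcne3 and 1.57 for Rwdd2a.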

How the results depend on the processing

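No gene was called between aPD1 and IgG1 in B2mKO tumours under any of the 23 alternatives, and the smallest adjusted p among them was 0.2485, without aPD1 replicate 1. The number bounded within 2-fold ran from 12799 to 13709 and that within 1.5-fold from 7930 to 10474 at the same threshold, which with any gene of at least 1 count was 37.5% and 23.6% of 34952 genes. The share of genes with an unadjusted p under 0.05 was 2.94% (1028 genes) with any gene of at least 1 count, 2.18% with B2mKO libraries alone, 1.76% with those and a replicate block, 1.77% without the 3 libraries that stood apart, and 1.83% to 6.07% with 1 library left out. Called differences between genotypes numbered 10 with any gene of at least 1 count, 114 with DESeq2, 1 without the 3 libraries and 3 to 23 with 1 library left out. The share of genes raised in WT with a 2-fold rise left out was 65.0% without the 3 libraries and 70.0% to 78.2% with 1 library left out. The replicate block gave 475 genes at an unadjusted p under 0.05 and 12 differences. Same-numbered libraries did not deviate together (correlations 0.255, -0.163, -0.0489, 0.107 and -0.118 over the 5 numbers), so the numbers were not used for pairing. Leaving out the 3 libraries, the gene length trend, the legacy edgeR fit and the settings of the genotype difference were chosen after seeing the data.

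Of 79 named genes, 67 kept their sign in every setting, as did 17 of 33 list medians. The medians that turned were those of interferon gamma response, MHC class I, regulatory T cell, neutrophil, mast cell, chemokine, matrix metalloproteinase, ADAM and ADAMTS, protease inhibitor, proteasome, hypoxia, fibroblast and collagen, muscle, adipocyte, epithelial and Hox B genes. The other 12 genes turned as follows, and the causes were not tested. With limma voom the log2 change was -0.18 for Ido1, 0.69 for Acta1 and 0.42 for Xirp2. Without the 3 libraries it was 0.021 for Ifih1, -0.73 for Adipoq, -0.037 for Epcam, -1.15 for Ido1, 0.13 for Slco3a1, 2.60 for Acta1, 1.43 for Xirp2 and -0.76 for Hp. Leaving out 1 library at a time gave -0.048 to 0.52 for Pdcd1, -0.12 to 0.54 for Gzmb, -0.0058 to 0.44 for Klra4, -0.062 to 1.60 for Epcam and -0.69 to 0.61 for Ido1. It gave -0.17 to 0.040 for Slco3a1, -3.85 to 4.78 for Acta1, -6.14 to 5.69 for Xirp2 and -0.65 to 2.34 for Chil3. Intervals were widest for genes under 5 CPM.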
